A study of Mus musculus with 6 samples.

Results

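The 9 genes described here encode subunits of AP-1, a transcription factor that binds DNA as a dimer of basic leucine zipper proteins. They were taken by symbol from the deposited table of 14003 genes, in which all 9 were present. The FOS family was represented by Fosl1, Fosl2, Fos and Fosb, the JUN family by Jun, Junb and Jund, and the related dimer partners by Batf3 and Jdp2. By label the cells are wild-type MC3T3-E1, an established line of osteoblast precursors from mouse calvaria. RNA was sequenced from 3 control samples left untreated and 3 samples exposed to 200 µM sulfasalazine for 24 h. Sulfasalazine is an anti-inflammatory drug that is also known to inhibit cystine import, and the title of the series concerns TNF receptor and NF-kB signalling. The labels name no vehicle in either group.

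JUN proteins can pair with each other or with FOS proteins, whereas FOS proteins need a JUN partner to bind DNA stably. The dimers recognise the sequence TGANTCA, where N is any base, or the related element TGACGTCA. Fos, Fosb, Jun and Junb are classical immediate early genes that are switched on by growth factors, cytokines and stress through MAP kinases, and Fosl1 is a later gene that is itself raised by ERK signalling and by AP-1. In bone, FRA-1 (the product of Fosl1), FRA-2 (Fosl2), FOSB and JUNB are known regulators of osteoblast differentiation and matrix formation.

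Whole reads recovered from the FPKM values (fragments per kilobase of gene length and library size) numbered 15980935 to 21579133 per library. Control replicate 3 had the fewest reads and stood apart on the first principal component, at -42.6 against -65.3 and -63.2 for the other controls and 54.1 to 59.2 for the sulfasalazine libraries. The table held 10 of 16 listed osteoblast markers, of which 6 averaged less than 1 FPKM. Sp7 was listed at 0 in 5 libraries and Col1a1 lay between 0.0561 and 0.655 FPKM. The 3 osteoblast markers at 10 FPKM or more were Runx2 (16.8 to 24.9 FPKM), Sparc (10.05 to 43.6 FPKM) and Spp1, which fell from 1868 ± 309 to 947 ± 104 FPKM. The sum of the osteoblast markers, nearly all of it Spp1, was 1554 to 2145 FPKM in controls and 892 to 1113 FPKM with sulfasalazine. Of 12 listed epithelial markers 10 were in the table, 6 of them averaging less than 1 FPKM, and their summed level was 1294 to 1454 FPKM in the control libraries and 1885 to 2093 FPKM with sulfasalazine, most of it from Krt8, Krt18 and Krt19. These keratins did not move together: Krt8 rose from 287 ± 33.4 to 902 ± 58.1 FPKM and Krt18 from 708 ± 61.1 to 913 ± 61.4 FPKM, whereas Krt19 fell from 350 ± 43.2 to 154 ± 42.9 FPKM. The mitochondrial share of reads lay between 1.47% and 2.21% in control libraries and between 3.72% and 3.797% in treated ones, without overlap. The part of these marker and mitochondrial differences in the results was not tested. In bulk RNA, fewer cells that express a gene and less of its RNA per cell cannot be told apart. Separate cultures are not stated for the replicates. The p-values therefore reflect only how these 6 samples varied, and that variation may be technical.

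AP-1 subunit RNA was lower with sulfasalazine for 5 of the 8 subunits tested, higher for 0, and 3 did not pass (limma, Benjamini-Hochberg adjusted p under 0.05). Over all 10338 genes tested, 29.3% were called lower, 37.2% higher and 66.5% in either direction, so a call alone was common in these data. The median log2 fold change, sulfasalazine over control, was -1.03 for the 8 subunits and 0.08 for all genes tested. Genes entered the test if 3 or more libraries reached 1 FPKM, and Batf3 was below that level. For 4 subunits (Fosl1, Fosl2, Jun and Junb) all 3 sulfasalazine values lay below all 3 control values, which was the case for 31.1% of the genes tested. The reverse held for 0 subunits and for 40.3% of genes, and 71.4% of genes had groups apart in either direction, against 4 of the 8 subunits. Values of single libraries are given below in the order of replicates 1, 2 and 3, controls first. With 3 samples against 3, an exact permutation test of a single gene cannot go below p = 0.1.

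**Figure D1:**
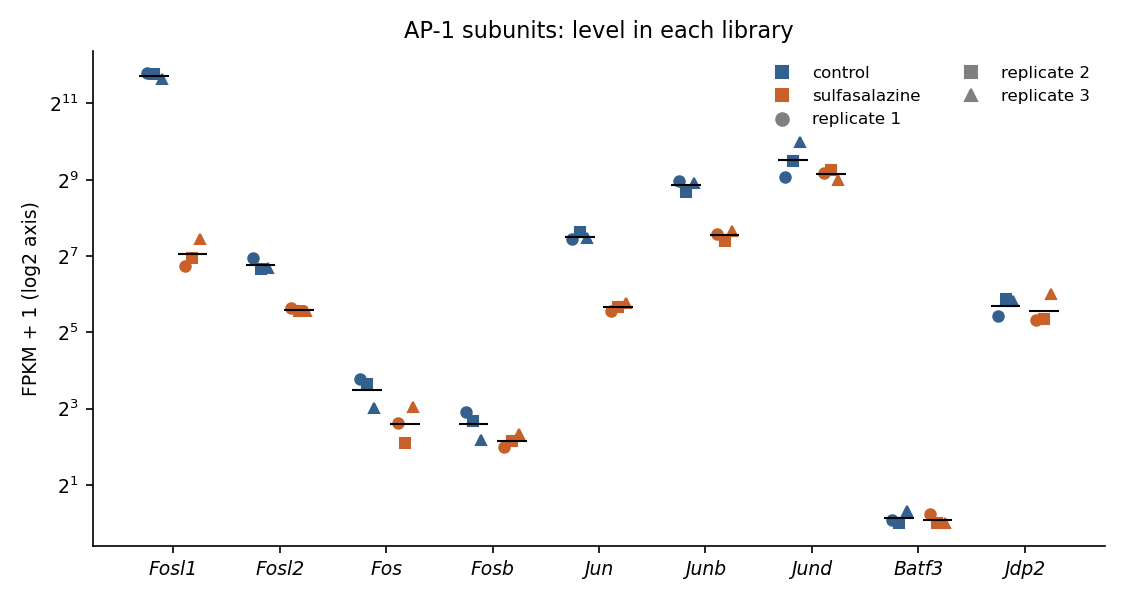
Level of each AP-1 subunit as FPKM + 1 on a log2 axis, with 1 point per library, symbols for the replicate number and a bar at the mean of the log values of each group (n = 3). Fosl1 moves from 3189 to 3547 FPKM in the controls to 106 to 174 FPKM with sulfasalazine, whereas the Jund, Fos, Fosb, Batf3 and Jdp2 points of the groups overlap.

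Fosl1 (chromosome 19, 5447547 to 5455946 on GRCm38, plus strand) was the most abundant subunit in the controls. It measured 3547, 3485 and 3189 FPKM in the control libraries and 106, 122 and 174 FPKM after treatment. Every treated value was far below every control value, and replicate 3 of each group was the closest to the other group. Its mean was 3407 ± 191 FPKM in controls and 134 ± 35.4 FPKM after treatment (SD, n = 3), a log2 fold change of -4.69 (SE 0.18, limma adjusted p = 2.4e-06). This was the 6th largest fall among the genes tested. Ranked by FPKM among all 14003 genes, Fosl1 was 4th, 7th and 13th in the controls, and 1249th, 1074th and 668th after treatment. The deposited FPKM uses a length of 906 bases for Fosl1, whose longest coding transcript has 1864 bases. Ranks were not recomputed on that transcript. Behind the Fosl1 values were 47330 to 67308 recovered reads per control library and 2125 to 3102 per sulfasalazine library.

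The 3′ part of Fosl1 is shared with Ccdc85b, a gene on the opposite strand (chromosome 19, 5453180 to 5457894). Exons 3 and 4 of Fosl1-201, the longest coding transcript, lie wholly within Ccdc85b exons in GENCODE M21. These are 1163 of the 2033 exonic bases of Fosl1 (57.2%) and 62.4% of Fosl1-201. The shorter transcripts Fosl1-202 and Fosl1-203 end upstream and share 0 bases. The sources used here do not give the strand setting of the counting, so reads of the shared stretch cannot be assigned with certainty.

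Ccdc85b did not pass the test in either direction. It measured 20.9, 24.7 and 37.5 FPKM in the control libraries and 37.6, 38.7 and 33.5 FPKM after treatment (log2 fold change 0.43, SE 0.20, adjusted p = 0.095 in limma). The groups overlapped, with control replicate 3 as high as the treated libraries. In reads, Ccdc85b amounted to 2.89%, 3.47% and 5.76% of the Fosl1 reads in the controls, and to 174%, 156% and 94.5% after treatment. When the reads of both genes were summed, the total was 3132 to 3375 CPM (reads scaled to the library total) in the controls and 270 to 313 with sulfasalazine. The log2 fold change of this sum was -3.50, against -4.70 for Fosl1 reads alone on the same scale. The groups did not overlap in the sum either. Reads that the counting may have dropped as shared by both genes are in neither number.

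**Figure D2:**
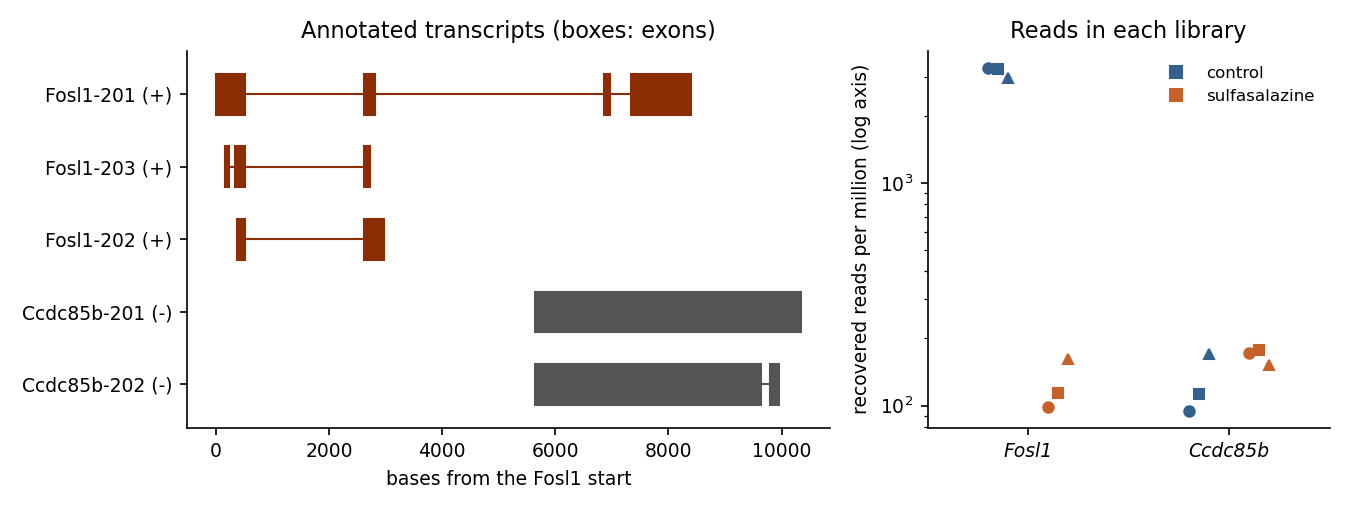
Left, annotated transcripts of Fosl1 (plus strand) and Ccdc85b (minus strand) in bases from the Fosl1 start, with boxes for exons; the last exons of Fosl1-201 fall inside Ccdc85b. Right, recovered reads as CPM for both genes in each library on a log axis, where Fosl1 drops from 2962 to 3280 down to 98.5 to 161 and the Ccdc85b points of both groups lie between 94.8 and 177.

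Fosl2 (chromosome 5, 32135801 to 32157842) also fell. It measured 123, 100.1 and 103 FPKM in the control libraries and 48.9, 46.3 and 46.5 FPKM after treatment. The groups were well apart and the treated values were nearly equal. The log2 fold change was -1.18 (SE 0.11, limma adjusted p = 5.5e-05). The ratio of Fosl1 to Fosl2 FPKM was 28.9, 34.8 and 31.0 in the controls and 2.17, 2.63 and 3.73 after treatment. The groups did not overlap in this ratio, which a single scaling factor per library leaves as it is.

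Fos and Fosb, the founding immediate early FOS genes, were scarce in both groups. Fos (chromosome 12, 85473890 to 85477273) measured 12.6, 11.5 and 7.16 FPKM in the control libraries and 5.13, 3.32 and 7.29 FPKM after treatment. Control replicate 3 lay within the treated range, so the groups overlapped. The log2 fold change was -0.89 with an SE of 0.28 (adjusted p = 0.023 in limma). It no longer passed without control replicate 1 (adjusted p = 0.081), control replicate 2 (0.082), sulfasalazine replicate 1 (0.057) or sulfasalazine replicate 2 (0.083). Only 74 to 276 reads per library lay behind the Fos values.

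Fosb (chromosome 7, 19302696 to 19310051) measured 6.55, 5.41 and 3.55 FPKM in the control libraries and 2.97, 3.47 and 4.03 FPKM after treatment. As for Fos, control replicate 3 was the lowest control and sulfasalazine replicate 3 the highest treated library, and the groups overlapped. The log2 fold change of -0.43 did not pass (SE 0.21, limma adjusted p = 0.11). It passed as lower without control replicate 3 (adjusted p = 0.0085), under median-of-ratios scaling (0.049) and under quantile normalization (0.014).

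Jun (chromosome 4, 95049034 to 95052222) encodes c-JUN, the JUN protein with the strongest transactivation. It measured 173, 196 and 177 FPKM in the control libraries and 46.2, 49.98 and 53.4 FPKM after treatment. The values within each group were close and the groups were far apart. Jun fell to 27.4% of its control mean, a log2 fold change of -1.85 with an SE of 0.10 (adjusted p = 7.6e-06 in limma). An antisense gene, Junos, which is absent from the deposited values, covers 7.28% of the exonic bases of Jun.

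Jun is known to be driven by AP-1 and ATF proteins through sites in its own promoter. RefSeq promoters on GRCm38.p6 (from 250 bases before to 50 after the start) were found for 8 of the 9 subunits. These had 10 promoters in all, 3 of them of Jdp2. Fosl1 had no promoter in this source and was not searched. TGANTCA and TGACGTCA, searched on both strands, matched 7.81% and 1.79% of all 32851 promoters in the table. They matched 0 of the 10 subunit promoters, which are too few to show a difference from these shares. The variant TGACATCA was added to the search because it is the known Jun site. It matched 1 of the 10, that of Jun, and 3.62% of all promoters on either strand. Because the variant was chosen for Jun, this match cannot be taken as a finding about these data. Its first base lies at position -45 from the RefSeq start. The 120 bases before the Jun start, chr4:95052223-95052342 (- strand), are shown with this match in capitals, because Jun is the subunit in which such a site has been described.
Jun: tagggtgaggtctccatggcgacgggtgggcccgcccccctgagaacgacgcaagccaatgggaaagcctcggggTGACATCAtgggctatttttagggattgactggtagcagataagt

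Junb (chromosome 8, 84976910 to 84978718) encodes a JUN protein that often opposes c-JUN in proliferation. It measured 496, 409 and 485 FPKM in the control libraries and 190, 168 and 200.4 FPKM after treatment. No treated value came near the lowest control. The log2 fold change was -1.31 (SE 0.12, limma adjusted p = 5.2e-05). GENCODE M21 has a second Junb transcript overlapping Prdx2, but within the deposited coordinates of Junb 0 bases are shared with another gene.

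Jund (chromosome 8, 70698949 to 70700616) encodes the JUN protein that is present in resting cells. It measured 541, 714 and 1012 FPKM in the control libraries and 580, 608 and 507 FPKM after treatment. The controls spread widely, and control replicate 1 lay inside the treated range. The log2 fold change of -0.38 did not pass (SE 0.22, limma adjusted p = 0.16). Without control replicate 1, the lowest control, it was -0.59 and passed (limma adjusted p = 0.024). Without control replicate 3, the highest control, it was -0.14 and did not pass (limma adjusted p = 0.42). Leaving out replicate 3 of both groups gave -0.07 (limma adjusted p = 0.7). Gm11175, an antisense gene absent from the deposited values, covers 52.6% of the exonic bases of Jund. Reads of Jund therefore carry the same reservation as those of Fosl1, but no Gm11175 reads are available to set beside them.

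Jdp2 (chromosome 12, 85599027 to 85639878) encodes a JUN partner that represses AP-1 sites and lies near Fos on the same chromosome. It measured 42.0, 57.8 and 55.2 FPKM in the control libraries and 39.2, 39.8 and 63.1 FPKM after treatment. The highest value of all was a treated one, and the log2 fold change of -0.14 did not pass (SE 0.21, limma adjusted p = 0.55). Batf3 (chromosome 1, 191097847 to 191108945), a JUN partner known from dendritic and T cells, had 1, 0 and 3 recovered reads in the controls and 3, 0 and 0 reads after treatment. At this depth no difference in Batf3 was detectable.

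**Figure D3:**
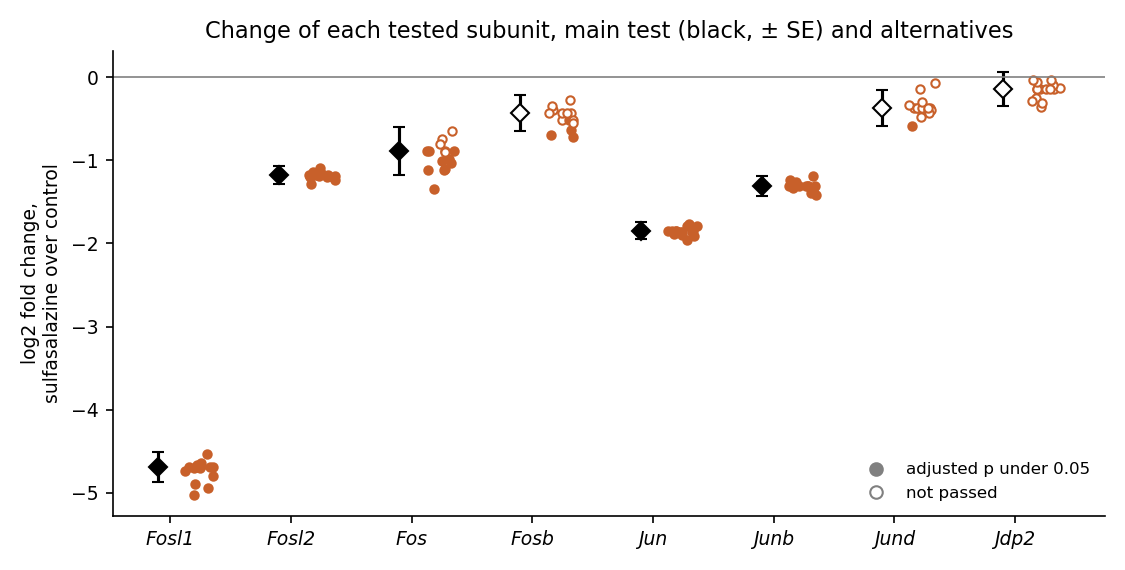
Log2 fold change of the 8 tested subunits, sulfasalazine over control, in the main limma test (black diamonds with SE) and under each alternative processing other than stricter thresholds (circles); filled symbols passed an adjusted p under 0.05. Fosl1, Jun, Junb and Fosl2 are filled throughout, Fos, Fosb and Jund change between filled and open, and Jdp2 is open throughout.

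In the authors' deposited table, 7 of the 9 subunits have an adjusted p under 0.05, where 55.0% of its genes do. Its log2 fold change is -4.78 for Fosl1, -1.97 for Jun, -1.42 for Junb, -1.30 for Fosl2 and -1.10 for Fos. The authors' deposited table also has Fosb at -0.67 (adjusted p = 0.033) and Jund at -0.52 (adjusted p = 0.038), though its own label for both is not significant, and neither passed in the limma test above. Both sources have the same order of the 5 falls, from Fosl1 to Fos.

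The make-up of AP-1 RNA differed between the groups. In the controls Fosl1 held 71.8%, 70.0% and 63.4% of the summed FPKM of the 9 subunits in replicates 1, 2 and 3. With sulfasalazine it held 10.4%, 11.7% and 16.4%, and Jund was the largest at 56.9%, 58.4% and 48.1%. Jund held 11.0% to 20.1% in the controls. The FPKM of Jund itself overlapped between the groups. The share of Jdp2, whose FPKM also overlapped, was 0.85% to 1.16% in the controls and 3.83% to 5.98% with sulfasalazine. Within the JUN family alone, Jund took 53.1% ± 7.92 of the FPKM in controls and 70.4% ± 3.54 with sulfasalazine (SD, n = 3), and Jun took 13.2% ± 2.32 and 6.24% ± 0.70. The ratio of Jund to Jun FPKM was 3.13, 3.65 and 5.71 in the controls and 12.6, 12.2 and 9.50 after treatment, without overlap. Within the FOS family, Fosl1 made up 96.5% ± 0.31 in controls and 69.9% ± 5.00 with sulfasalazine.

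Such levels between genes depend on the length used in the FPKM. For each of the 9 subunits except Junb, the length behind the deposited FPKM was the mean over the annotated GENCODE M21 transcripts, rounded to a whole base, and this held for 96.8% of all genes. For Fosl1 that mean is 906 bases over 3 transcripts, whereas its longest coding transcript has 1864 bases. The FPKM of Fosl1 is therefore 2.06 times as high as on the longest coding transcript, that of Fos 1.93 times and that of Fosl2 1.67 times, while Jun, Junb and Jund are unaffected. Fold changes of a gene between libraries are the same on either length.

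On the longest coding transcript, Fosl1 held 52.4% ± 5.24 of the 9 subunits in controls and 6.94% ± 1.88 with sulfasalazine (SD, n = 3). The summed FOS level was 3.05, 2.73 and 1.97 times the summed JUN level in the controls with the deposited FPKM. On the longest coding transcript the same ratio was 1.495, 1.34 and 0.967, so that control replicate 3 no longer had more FOS than JUN. With sulfasalazine the ratio was 0.200, 0.212 and 0.304 with the deposited FPKM and 0.105, 0.111 and 0.157 on the longest coding transcript. The groups did not overlap on either length. Neither length allows for exonic bases shared with opposite-strand genes, which are 57.2% for Fosl1 and 52.6% for Jund. How the counting of shared stretches affected these shares and ratios was not tested.

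**Figure D4:**
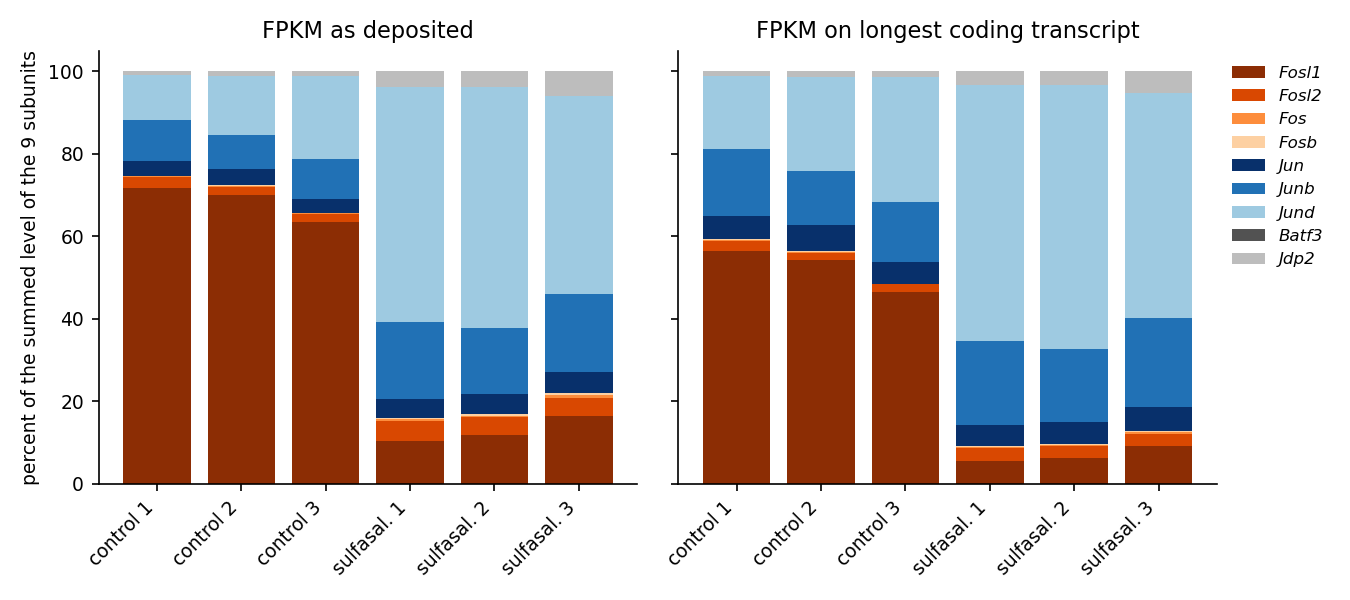
Percent of the summed level of the 9 AP-1 subunits held by each subunit in each library, from the deposited FPKM (left) and from FPKM recomputed on the longest coding transcript (right). Fosl1 is the largest share in all 3 controls (63.4% to 71.8% on the left) and Jund in all 3 sulfasalazine libraries (48.1% to 58.4%).

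By mean FPKM the controls ranked Fosl1, Jund, Junb, Jun, Fosl2, Jdp2, Fos, Fosb and Batf3, and no neighbours in that order overlapped between libraries. With sulfasalazine the order was Jund, Junb, Fosl1, Jun, Jdp2, Fosl2, Fos, Fosb and Batf3. Here the range of Junb (168 to 200.4 FPKM) overlapped that of Fosl1 (106 to 174 FPKM), though Junb was above Fosl1 within every library. The ranges of Jun, Jdp2 and Fosl2 overlapped each other, and Fos overlapped Fosb. Their order within a library changed between libraries. On the longest coding transcript, Fosl1 with sulfasalazine stood at 51.5 to 84.4 FPKM. Its range overlapped that of Jun instead of Junb, though Fosl1 was above Jun within every library.

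Genes around AP-1 were described by 4 lists of textbook members, drawn up with earlier results of these data known. Of 30 tested dimer partners and related basic leucine zipper genes, 19 fell and 6 rose, and their median log2 fold change was -0.76. Of this list 63.3% fell and 20% rose, against 29.3% and 37.2% of all genes tested. The rises include Mafa, which reached 1 FPKM only with sulfasalazine and so entered the test through its higher group. Without the filter, 19 of 37 genes of this list fell and 8 rose. The largest falls were those of Ddit3, which encodes the stress factor CHOP, from 637 ± 45.7 to 50.4 ± 18.5 FPKM, and of Atf3, a stress-induced JUN partner, from 233 ± 56.4 to 27.8 ± 11.3 FPKM (SD, n = 3). Maff, a small MAF gene, fell from 328 ± 49.8 to 42.9 ± 4.20 FPKM and Cebpg, a partner of ATF4, from 59.8 ± 16.4 to 11.2 ± 2.97 FPKM. Among the ATF genes that pair with JUN, Atf7 rose from 17.1 ± 3.65 to 41.0 ± 1.37 FPKM. Atf2 did not pass (adjusted p = 0.27 in limma), with a log2 fold change of -0.31 and an SE of 0.24. Atf4, also in this list, fell from 1394 ± 93.3 to 392 ± 131 FPKM. Of the remaining ATF genes in the list, Atf1 and Atf6 fell, Atf6b rose and Atf5 did not pass. Apart from Atf3, these ATF genes were named after their values were seen.

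RNA of the kinases and factors upstream of AP-1 moved in both directions. Of 42 tested, 17 rose, 9 fell and 16 did not pass, with a median log2 fold change of 0.06, near the 0.08 of all genes. The 40.5% of this list that rose and the 21.4% that fell were close to the 37.2% and 29.3% of all genes tested. Rps6ka1, encoding an ERK-activated ribosomal S6 kinase, rose from 4.10 ± 0.51 to 23.7 ± 1.83 FPKM, Mapk3, encoding ERK1, from 124 ± 47.6 to 362 ± 41.7 FPKM, and Map3k5, encoding the stress kinase ASK1, from 10.3 ± 1.01 to 30.0 ± 0.73 FPKM. Map2k6, which activates p38, fell from 41.3 ± 31.2 to 8.65 ± 1.89 FPKM, with a wide control spread. Named after their values were seen, Srf and Elk1, factors of the serum response element in the Fos promoter, had log2 fold changes of 0.03 (SE 0.13) and -0.06 (SE 0.14) and did not pass.

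Of 30 tested inhibitors and degraders of AP-1, 16 fell and 8 rose (median log2 fold change -0.65). These were 53.3% and 26.7% of the list, against 29.3% lower and 37.2% higher among all genes tested. The MAP kinase phosphatase gene Dusp5 fell from 81.2 ± 4.64 to 16.0 ± 8.46 FPKM, Dusp8, encoding a phosphatase of JNK and p38, from 36.6 ± 7.11 to 6.73 ± 1.46 FPKM, and Zfp36l2, encoding an mRNA decay factor, from 164 ± 15.1 to 46.9 ± 10.8 FPKM. Trib2, encoding a pseudokinase adaptor of ubiquitin ligases, rose from 2.34 ± 1.18 to 32.4 ± 1.64 FPKM.

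Of 36 tested genes known as AP-1 targets, 24 fell and 5 rose, and 7 did not pass (median log2 fold change -1.12). Thus 66.7% of this list fell and 13.9% rose, where all genes tested gave 29.3% and 37.2%. Many of them also have other known regulators, NF-kB among them. Lif, an IL-6 family cytokine gene, fell from 178 ± 22.0 to 12.9 ± 0.72 FPKM, and Hbegf, encoding a ligand of the EGF receptor, from 203 ± 39.0 to 15.1 ± 3.58 FPKM. Csf2, encoding GM-CSF, measured 51.2, 12.1 and 27.1 FPKM in the control libraries and 0.0565, 0 and 0 FPKM after treatment. The chemokine gene Ccl2 measured 41.5, 9.43 and 27.9 FPKM in the control libraries and 0, 0.154 and 1.49 FPKM after treatment. Csf2 reached 1 FPKM only in the controls, so it entered the test through the group in which it was high. The controls alone also let Ccl2 into the test. Without the filter, 28 of 50 targets fell and 7 rose, against 3135 and 4274 of all 14003 genes. The 5 targets that rose, picked out here once their values were known, were Clu, Hmox1, Vim, Thbs1 and Krt18.

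**Figure D5:**
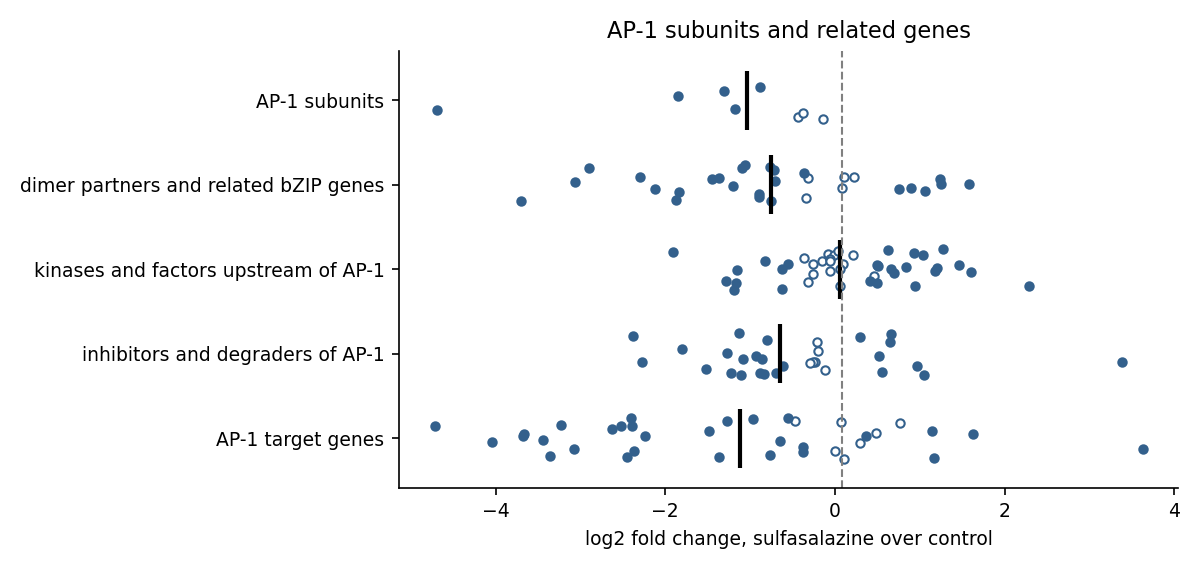
Log2 fold change, sulfasalazine over control, of each tested gene in the AP-1 subunits and in the 4 related lists; filled circles passed an adjusted p under 0.05, black bars are list medians and the dashed line is the median of all genes tested (0.08). Medians are -1.03, -0.76, 0.06, -0.65 and -1.12 from top to bottom.

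Of the AP-1 target genes, 45 had RefSeq promoters, and 17 of their 55 promoters (30.9%) held TGANTCA, against 7.81% of all promoters. The list was chosen as known AP-1 targets, so this higher share cannot be taken as a finding about these data. Of the 17 target genes with a match only 9 were tested. Of those tested, 7 fell and 2 did not pass, with a median log2 fold change of -1.49. Among those with a promoter and no match 16 were tested, of which 11 fell, 2 rose and 3 did not pass, with a median of -0.81. The other 11 tested targets, not matched to a promoter here, had 6 that fell, 3 that rose and 2 that did not pass, with a median of -0.47. The match is a description of sequence and not a measured binding site. Shown with the match in capitals are the 120 bases before the start of 2 genes that fell, Mmp13 (collagenase 3) and Plaur (the urokinase receptor), and of 1 that did not pass, Gja1 (connexin 43). Mmp13 lies at chr9:7272394-7272513 (+ strand), Plaur at chr7:24462363-24462482 (+ strand) and Gja1 at chr10:56377180-56377299 (+ strand) on GRCm38.p6.
Mmp13: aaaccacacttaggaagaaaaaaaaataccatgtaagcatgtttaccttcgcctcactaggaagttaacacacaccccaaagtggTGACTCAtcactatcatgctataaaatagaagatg
Plaur: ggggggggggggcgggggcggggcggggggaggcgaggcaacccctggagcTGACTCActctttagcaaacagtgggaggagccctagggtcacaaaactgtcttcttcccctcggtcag
Gja1: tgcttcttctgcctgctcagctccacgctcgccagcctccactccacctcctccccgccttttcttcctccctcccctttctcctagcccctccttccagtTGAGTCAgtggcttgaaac
The first base of the match lies at -35 in Mmp13, -69 in Plaur and -19 in Gja1. The log2 fold changes of these genes were -2.45 (SE 0.61), -1.49 (SE 0.21) and 0.00 (SE 0.14). A TGANTCA close to the start was thus present both in genes that fell and in a gene that did not pass.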

How the data were processed

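The submitters' processing notes name HTSeq 0.13.5, HISAT2 2.2.1, fastp 0.23.0, edgeR and build mm39, without roles, filters or strand setting. Deposited by the authors were FPKM per library, a library-size-adjusted signal per library, their log2 fold change and their p-value with its adjusted value. Of 13982 genes found in GENCODE M21, 13849 have its start and end, so coordinates are those of GRCm38. Groups came from sample titles, and all samples carry the same batch label.

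Whole reads were recovered from the FPKM steps (100% of values above 0, tolerance 0.00001 reads), with the signal used to choose among possible sets. For 37 genes more than 1 set lay near the signal. Between the closest libraries, sulfasalazine replicates 1 and 2, chi-square over genes was 6.76 times its degrees of freedom, so all were kept as separate samples.

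Values were taken as log2(FPKM + 1), which understates changes of low genes, and compared with limma 3.58.1 in R 4.3.3 (intensity trend, two-sided, Benjamini-Hochberg over 10338 genes). Other values were computed in Python 3.11.15. In 5 simulations of sulfasalazine against control (200 changed genes of 10232 to 10251, dispersion 0.02), the test found 97.8% of those with a log2 change of 1 and called 0.10% of unchanged genes. In the data 66.5% of genes were called and control replicate 3 stood apart, which the simulations did not include. These rates therefore need not hold for the data.

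Named genes were the 9 subunits, genes sharing their exons, up to 4 called genes with the largest change per list, and the 3 genes nearest in pattern to Fosl1 and Jun. Members and lists were chosen with earlier results of these data known. Alternatives were a pseudocount of 0.1, no filter or 5 FPKM, 2 other scalings, no trend, the replicate block, libraries left out, voom on recovered reads, and stricter thresholds. Recomputed lengths and the sum of Fosl1 and Ccdc85b reads were added after the data were seen.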

Additional observations from a re-analysis of the deposited data

How the results depend on the processing

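No alternative reversed the direction of a tested subunit. Fosl1, Fosl2, Jun and Junb passed as lower under every alternative that was run, Fosl1 between -5.02 and -4.54 on the log2 scale (-3.50, with no test, when its reads were summed with those of Ccdc85b), and Jdp2 passed under none. Fos (-0.89) did not pass at an adjusted p under 0.01 or with a minimum change of 1 on the log2 scale, and ranged from -1.12 to -0.65 with 1 library left out. Fosb passed under median-of-ratios scaling (-0.52), under quantile normalization (-0.69) and without replicate 3 of both groups (-0.72), and ranged from -0.64 to -0.27 with 1 library left out. Jund ranged from -0.59 to -0.14 with 1 library left out and was -0.07 without replicate 3 of both groups. The number of called subunits ranged from 4 to 6. A minimum change of 1 on the log2 scale left 3430 called genes in all, 16 dimer partners and related genes, 12 upstream kinases and factors, and 11 inhibitors and degraders, since the criterion is stricter. The share of Fosl1 in the FOS family was 95.7% in controls on the longest coding transcript, and 87.2% in controls and 37.2% with sulfasalazine by reads not divided by length. With 1 library left out it was 96.4% to 96.7% and 67.3% to 72.3%. The causes of the other shifts were not tested.

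The replicate numbers gave no sign of pairing. Same-numbered libraries had correlations of their deviations of 0.04, -0.19 and -0.17, against -0.14 to 0.21 for differently numbered ones. With 3 samples per group these correlations cannot exclude a pairing. With the replicate number as a block, 6420 genes and 5 of the subunits were called. The block changed no subunit's call (Fos adjusted p = 0.044). Depth limits Batf3 and, less so, Fos and Fosb.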

Other observations

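The genes nearest in pattern to Fosl1 and Jun were sought by the Euclidean distance between log2(FPKM + 1) profiles over the 6 libraries, each centred on its own mean. Nearest to Fosl1 were Csf1, encoding the macrophage growth factor M-CSF (distance 0.60), Gadd45b, a stress-response gene (0.61), and Car6, encoding a secreted carbonic anhydrase (0.64). Csf1 averaged 708 ± 105 FPKM in controls against 33.6 ± 5.05 FPKM after treatment, and Gadd45b 355 ± 70.6 against 14.8 ± 1.32 FPKM (SD, n = 3). Nearest to Jun were Trim46 (0.17), Agap1 (0.18) and the DNA glycosylase gene Tdg (0.20). Tdg averaged 86.4 ± 1.78 FPKM in controls against 23.9 ± 2.92 FPKM after treatment. Other subunits were not among the nearest: counted over all tested genes but predicted ones, Jun was number 316 in order of distance from Fosl1, and Junb, the closest subunit to Jun, was number 502 from Jun. The 6 libraries share the treatment difference, so these distances describe mainly its size.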
